A study of Homo sapiens and Mus musculus with 12 samples.

Results

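Ponatinib is a multi-kinase inhibitor that was made against BCR-ABL and that also blocks the fibroblast growth factor receptors (FGFR), the platelet-derived growth factor receptors (PDGFR), KIT, RET and the vascular endothelial growth factor receptor KDR. The genes described here are 9 such receptors (*FGFR1*, *FGFR2*, *FGFR3*, *FGFR4*, *PDGFRA*, *PDGFRB*, *KIT*, *RET* and *KDR*) and 1 ligand, *FGF1*. They were chosen by symbol, with earlier results of these data known, as 10 of the 63677 human identifiers counted in MDA-MB-231 and as the 10 genes of the same symbols among 47729 mouse identifiers counted in 4T1. MDA-MB-231 is a human triple-negative breast cancer line and 4T1 a mouse mammary carcinoma line, both labelled wild type (WT). Cells of each line received 1 µM ponatinib or its solvent DMSO for 24 h, and RNA was sequenced in 3 libraries per group, 12 in all. The labels do not say whether the 3 libraries came from separate cultures, so the p-values measure the spread between libraries, which may be technical. The MDA-MB-231 libraries held 15012884 to 17301760 counts, and those of 4T1 held 17800675 to 18951493.

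These receptors are single-pass membrane proteins with an extracellular ligand-binding part and an intracellular tyrosine kinase. Ligand binding joins receptors into pairs that phosphorylate each other, and adaptors such as FRS2, GRB2 and SHC1 then couple them to the RAS–ERK and PI3K cascades. In breast tissue the FGF receptors are known from the epithelium and its tumors, the PDGF receptors from fibroblasts and pericytes, KDR from endothelium, KIT from mast cells and luminal progenitors, and RET from estrogen-responsive tumor cells. RNA was measured here, not protein or phosphorylation. In bulk RNA, fewer cells of a type and less RNA per cell cannot be told apart.

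The baseline differed between the lines in which of the 10 genes was most abundant. Levels of different genes are compared as TPM, the length-scaled abundance, which divides counts by the exon length of each gene. In DMSO-treated MDA-MB-231 cells, *FGFR1* came first with 27.6 ± 1.91 TPM (SD, n = 3) and *FGFR4* second with 11.7 ± 0.881 TPM. *FGF1* (2.91 ± 0.557 TPM), *KDR* (2.20 ± 0.485 TPM) and *FGFR3* (1.62 ± 0.278 TPM) followed, and each of these neighbors in the order overlapped the next over the libraries. *PDGFRB* stood apart below them at 0.201 ± 0.120 TPM, and *KIT*, *FGFR2*, *PDGFRA* and *RET* lay at 0.0301 TPM or less. In DMSO-treated 4T1 cells, *Fgf1* came first with 5.10 ± 0.333 TPM. *Kdr* (1.51 ± 0.455 TPM) and *Pdgfra* (0.946 ± 0.352 TPM) overlapped each other. *Pdgfrb*, *Ret*, *Fgfr1* and *Fgfr3* lay between 0.197 and 0.364 TPM, each overlapping the next, *Fgfr2* had 0.0666 TPM, and *Fgfr4* and *Kit* had no count. Thus 5 of the 10 genes reached 1 TPM in DMSO-treated MDA-MB-231 and 2 of the 10 in DMSO-treated 4T1. None of the 4 FGF receptors was among those 2.

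**Figure D1:**
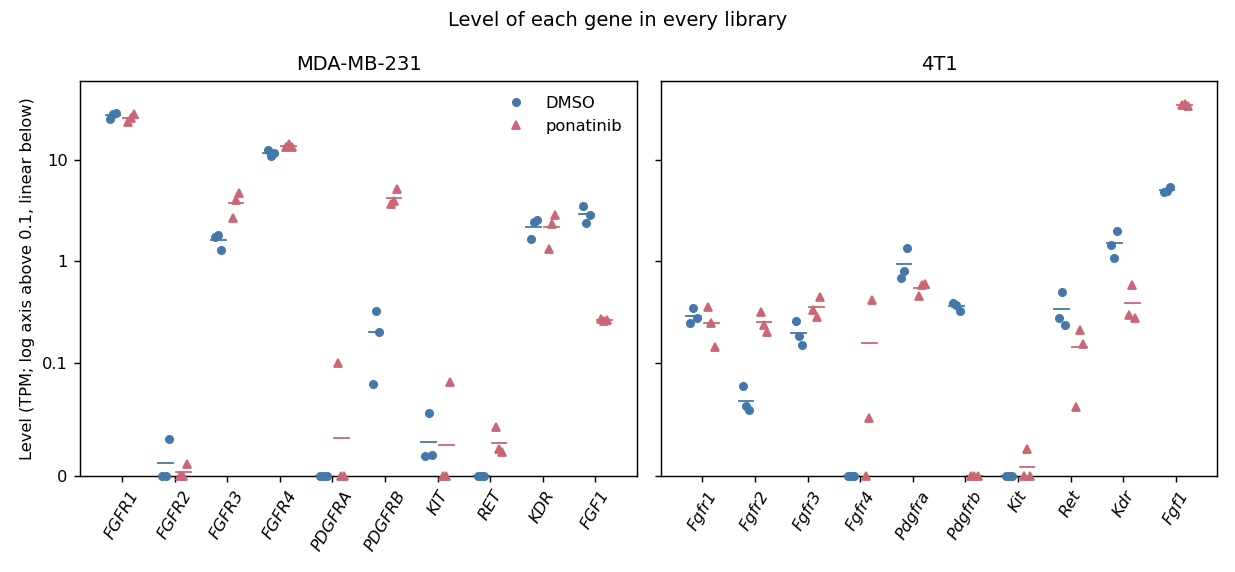
Level of the 10 genes in each library in TPM (vertical axis, logarithmic above 0.1 and linear below), for MDA-MB-231 on the left and 4T1 on the right, with DMSO libraries as circles, ponatinib libraries as triangles and group means as lines. *FGFR1* is the most abundant in MDA-MB-231 in both groups and *Fgf1* in 4T1 in both groups, while *PDGFRB* and *FGF1* change places in MDA-MB-231.

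The labels call both lines epithelial cells. In MDA-MB-231 the epithelial cadherin *CDH1* had 0 counts with DMSO and 1 with ponatinib, while keratin *KRT8* averaged 890 CPM (counts scaled to library size) and the mesenchymal filament *VIM* 1288 CPM with DMSO. In 4T1 *Cdh1* averaged 830 CPM, *Krt8* 2389 CPM and *Vim* 3257 CPM with DMSO. The leukocyte marker *PTPRC* and the endothelial marker *PECAM1* were at 0 in all MDA-MB-231 libraries, and the fibroblast markers *Col1a2*, *Dcn* and *Lum* were at 0 in all 4T1 libraries. Other listed markers had counts. In MDA-MB-231 these were 5 of 6 endothelial, 10 of 10 fibroblast and pericyte, and 4 of 8 immune and mast cell markers. In 4T1 they were 4 of 6, 7 of 10 and 4 of 8. Their summed levels are given below beside the receptors.

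Changes with ponatinib were tested within each line by the quasi-likelihood test of edgeR with Benjamini-Hochberg adjustment over all tested genes, and a gene was called at an adjusted p under 0.05. In MDA-MB-231, 6 of the 10 genes passed the filter on low counts, of which 2 were called higher and 1 lower and 3 were not called. Among all 14610 tested genes, 27.3% were called higher and 26.8% lower (54.1% in all). In 4T1, 7 of the 10 passed, with 2 called higher, 3 lower and 2 not called, against 29.7% higher and 29.4% lower among 13286 tested genes. On the CPM scale 4 of the 6 had no overlap between groups in MDA-MB-231 (2 higher, 2 lower), against 60.4% of all tested genes (30.6% higher, 29.8% lower), and 6 of the 7 in 4T1 (3 higher, 3 lower), against 63.4% (32.6% higher, 30.8% lower). With a background of that size, the number of these genes that were called is not in itself a result about them, and the values of each gene follow. *FGF1* and *PDGFRB* in MDA-MB-231 and *Fgfr1*, *Fgfr2*, *Fgfr3* and *Pdgfrb* in 4T1 passed the filter through 1 group only, that in which they were higher. The same held for scarce genes of the lists described further below, such as *VEGFD* and *FGF18* in MDA-MB-231 and *Fgf15* in 4T1. The 4 untested genes in MDA-MB-231 never exceeded 5 counts in a library, and the 3 untested genes in 4T1 never exceeded 16.

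**Figure D2:**
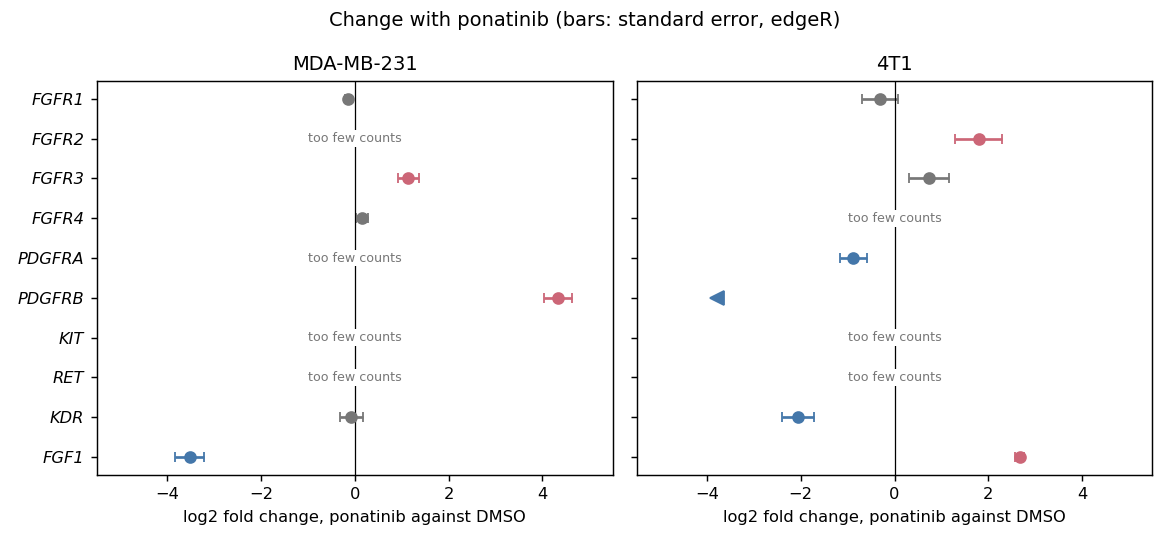
Log2 fold change, ponatinib against DMSO (horizontal axis), with its standard error from edgeR (bars), for the 10 genes, with MDA-MB-231 in the left and 4T1 in the right panel, in red where called higher, in blue where called lower and in gray where not called. *FGF1* lies at -3.52 in MDA-MB-231 and at 2.67 in 4T1, and the arrowhead for *PDGFRB* in 4T1 stands at the bound set by 3 counts, since all its ponatinib libraries had 0.

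For the 3 genes called in MDA-MB-231, the promoter windows of RefSeq (GRCh38.p14) are shown because these are the start regions of the human genes whose RNA changed with ponatinib. Windows were listed for 9 of the 10 human genes and run from 250 bases before to 50 bases after the start of the gene, 5′ to 3′ on the strand of the gene. Capitals mark matches, on either strand, to the GC box (GGGCGG) and the CCAAT box (CCAAT).
*PDGFRB*, chr5:150155796-150156095, minus strand: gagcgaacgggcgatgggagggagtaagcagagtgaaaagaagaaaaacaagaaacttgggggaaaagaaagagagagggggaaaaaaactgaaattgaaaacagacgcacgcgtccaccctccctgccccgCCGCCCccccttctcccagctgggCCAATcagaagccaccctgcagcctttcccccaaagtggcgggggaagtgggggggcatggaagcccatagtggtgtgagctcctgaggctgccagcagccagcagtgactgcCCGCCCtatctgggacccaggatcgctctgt
*FGF1*, chr5:142698021-142698320, minus strand: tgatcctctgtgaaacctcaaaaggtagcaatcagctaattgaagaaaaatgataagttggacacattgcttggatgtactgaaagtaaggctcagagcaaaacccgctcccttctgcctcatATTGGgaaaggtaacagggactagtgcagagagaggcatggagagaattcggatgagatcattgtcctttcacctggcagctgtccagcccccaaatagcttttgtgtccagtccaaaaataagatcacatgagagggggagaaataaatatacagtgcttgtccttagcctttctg
*FGFR3*, chr4:1793043-1793342, plus strand: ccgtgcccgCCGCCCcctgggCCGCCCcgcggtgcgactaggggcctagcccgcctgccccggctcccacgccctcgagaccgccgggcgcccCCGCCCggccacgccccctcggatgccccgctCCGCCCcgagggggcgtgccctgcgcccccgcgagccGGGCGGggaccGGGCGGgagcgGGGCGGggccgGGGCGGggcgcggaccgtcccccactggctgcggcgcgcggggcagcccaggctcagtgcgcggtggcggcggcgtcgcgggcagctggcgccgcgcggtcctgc
The window of *FGFR3* had 86.3% G and C and 8 GC boxes, that of *PDGFRB* 59.3% with 2 GC boxes and 1 CCAAT box, and that of *FGF1* 44.3% with 1 CCAAT box and no GC box. *FGF1* has 4 listed windows, of which the first is printed. Over all 35116 windows, 45% held a GC box and 34.6% a CCAAT box. None of the 3 windows matched AP-1 (TGANTCA, in 7.71% of all windows), ETS (CCGGAA, 17.2%), TEAD (GGAATG, 14%) or the TATA box (TATAAA, 11.5%). A match is a description of the letters, and nothing was measured here on binding to these windows.

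*FGF1* encodes a secreted ligand that binds all FGF receptors and changed in opposite directions in the lines. In MDA-MB-231 (hg38, chr5:142592178-142698070) its counts were 90, 57 and 70 with DMSO and 7, 6 and 7 with ponatinib. Every ponatinib library lay below every DMSO library, and the ponatinib libraries were nearly equal. The level fell from 4.69 ± 1.17 to 0.402 ± 0.0340 CPM (n = 3), a log2 fold change of -3.52 (SE 0.31, edgeR adjusted p = 2.60e-06). The summed counts were 11.6-fold lower (95% exact interval 7.36 to 19.4, covering counting error only). In 4T1 the counts of *Fgf1* were 182, 180 and 210 with DMSO and 1298, 1344 and 1242 with ponatinib. Here every ponatinib library lay above every DMSO library. The level rose from 10.6 ± 0.779 to 67.7 ± 1.57 CPM, 6.38-fold (log2 fold change 2.67, SE 0.10, edgeR adjusted p = 1.98e-12). Per length, *Fgf1* stood at 34.8 ± 1.01 TPM in ponatinib-treated 4T1, and the next of the 10 genes, *Pdgfra*, at 0.548 ± 0.0758 TPM.

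Among the other 17 FGF ligands, few were expressed. With *FGF1*, 5 of 18 ligands were at 0 in all libraries of MDA-MB-231 and likewise 5 of 18 in 4T1, and 9 and 11 of 18 had at most 3 counts in both groups. In MDA-MB-231, 2 of the other 17 were tested, 1 called higher and 1 lower (median log2 fold change -0.77, against 0.02 for all tested genes). *FGF5*, a ligand known from the hair cycle, had 950, 1006 and 1104 counts with DMSO and 116, 170 and 167 with ponatinib. It fell from 65.9 ± 3.28 to 9.10 ± 1.76 CPM without overlap (log2 fold change -2.86, SE 0.13, edgeR adjusted p = 1.83e-08). *FGF18*, a ligand of bone and cartilage, rose from 0.559 to 1.42 CPM (log2 fold change 1.32, SE 0.35, edgeR adjusted p = 0.00697). In 4T1, 3 of the other 17 were tested, 2 called lower and 1 not called (median -2.14, against -0.00014 for all tested genes). The metabolic hormone *Fgf21* had 820, 662 and 773 counts with DMSO and 168, 206 and 172 with ponatinib. It fell from 41.9 ± 4.87 to 9.52 ± 1.04 CPM without overlap (log2 fold change -2.14, SE 0.12, edgeR adjusted p = 4.29e-10). *Fgf15*, the mouse counterpart of the bile acid signal *FGF19*, had 16, 12 and 27 counts with DMSO and 2, 1 and 1 with ponatinib (log2 fold change -3.75, SE 0.60, edgeR adjusted p = 5.32e-05). *FGF2* (basic FGF) had 6 and 13 summed counts in MDA-MB-231 and was not tested, and in 4T1 it was not called (1.11 and 1.45 CPM). Summed over the 18 ligands, mean CPM was 72.0 with DMSO and 13.1 with ponatinib in MDA-MB-231. In 4T1 the sums were 54.9 and 79.4 CPM. Per length, *FGF5* led the ligands of MDA-MB-231 in both groups, at 34.6 ± 3.47 and 5.02 ± 1.17 TPM. In 4T1 *Fgf21* led with DMSO at 125 ± 11.4 TPM against 5.10 TPM of *Fgf1*, and with ponatinib the values were 30.4 ± 3.25 TPM for *Fgf21* and 34.8 ± 1.01 TPM for *Fgf1*, which overlapped over the libraries.

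**Figure D3:**
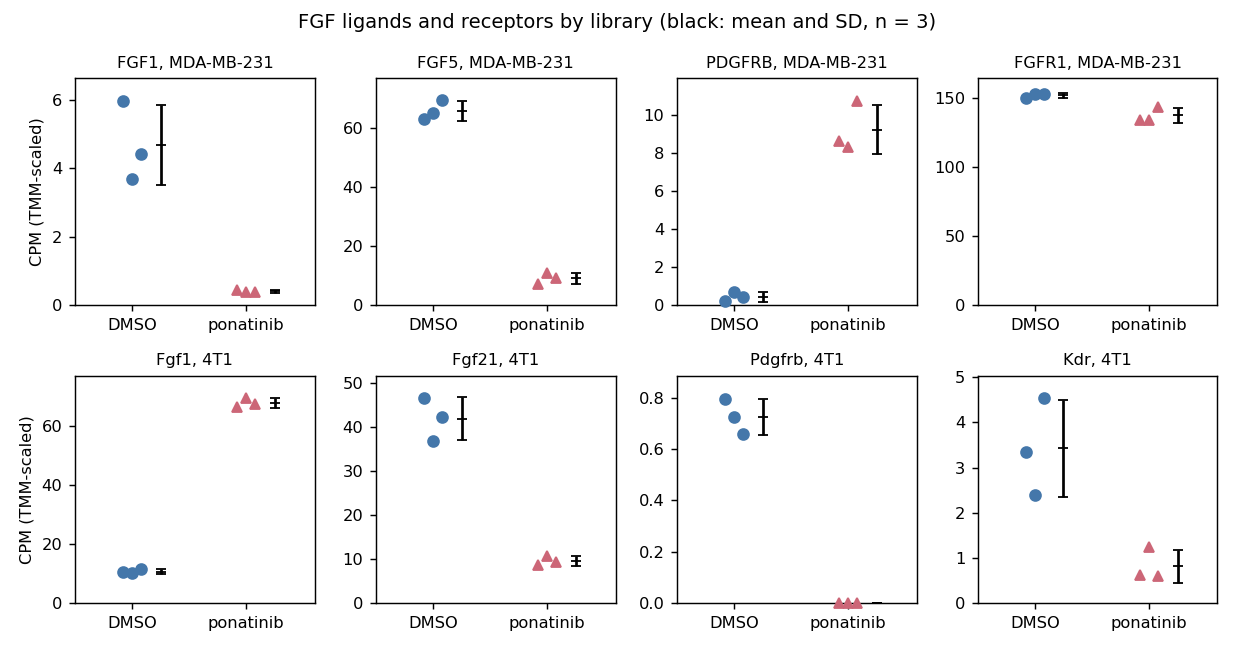
CPM of 8 genes in each library (vertical axes, each from 0), DMSO as circles and ponatinib as triangles, with mean and SD in black (n = 3), for MDA-MB-231 (top) and 4T1 (bottom). *FGF1* and *FGF5* are lower and *PDGFRB* is higher with ponatinib in MDA-MB-231, *Fgf1* is higher in 4T1, and all 3 ponatinib libraries of *Pdgfrb* lie at 0.

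*FGFR1*, the receptor with the highest level in MDA-MB-231, had 2259, 2361 and 2437 counts with DMSO and 2132, 2110 and 2623 with ponatinib. On the CPM scale the groups did not overlap, at 152 ± 1.90 against 138 ± 5.29 CPM, whereas on the TPM scale they did, at 25.4 to 28.8 against 23.9 to 28.6 TPM. The log2 fold change of -0.14 (SE 0.07, edgeR adjusted p = 0.106) was not called. With the replicate number as a block it was called lower, at the same size (-0.14, edgeR adjusted p = 0.00317). Over all alternatives it ranged from -0.18 to -0.05. In 4T1 (GRCm39, chr8:26003670-26066824), *Fgfr1* had only 14, 19 and 16 counts with DMSO and 20, 14 and 8 with ponatinib. The groups overlapped, and the log2 fold change was -0.31 (SE 0.38, edgeR adjusted p = 0.500).

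*FGFR3*, best known for restraining bone growth and for activating mutations in bladder cancer, was the only FGF receptor called in MDA-MB-231 (hg38, chr4:1793293-1808872). Its counts were 44, 42 and 31 with DMSO and 68, 91 and 121 with ponatinib, without overlap. It rose from 2.53 ± 0.511 to 5.57 ± 1.18 CPM, 2.21-fold (log2 fold change 1.14, SE 0.23, edgeR adjusted p = 0.00123). In 4T1 (GRCm39, chr5:33879018-33894412), *Fgfr3* had 10, 7 and 6 counts with DMSO and 13, 11 and 17 with ponatinib. The groups did not overlap, but the log2 fold change of 0.74 (SE 0.43, edgeR adjusted p = 0.148) was not called. The summed counts gave a ratio of 1.68 with an exact interval from 0.982 to 2.93, which covers counting error and not the spread between libraries. The ratio of summed counts in MDA-MB-231 was 2.23.

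*FGFR4*, which serves FGF19 and bile acid control in liver, was the second receptor of MDA-MB-231 (hg38, chr5:177086905-177098144). It had 313, 250 and 274 counts with DMSO and 332, 325 and 341 with ponatinib, or 18.1 ± 2.39 and 20.1 ± 1.25 CPM. The CPM values overlapped, and the log2 fold change of 0.15 (SE 0.12, edgeR adjusted p = 0.298) was not called. In 4T1 *Fgfr4* had no count with DMSO and 0, 1 and 8 with ponatinib. It was too low to test, and 8 of its 9 counts came from ponatinib replicate 3.

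*FGFR2*, a receptor typical of epithelia, was close to absent in MDA-MB-231, with 0, 0 and 3 counts with DMSO and 0, 0 and 1 with ponatinib. Both group sums are at or under 3 counts, so no fold is given. In 4T1 *Fgfr2* had 4, 3 and 3 counts with DMSO and 16, 12 and 10 with ponatinib, without overlap. It rose from 0.186 ± 0.0355 to 0.660 ± 0.142 CPM (log2 fold change 1.80, SE 0.50, edgeR adjusted p = 0.00524). The ratio of summed counts was 3.57 (95% exact interval 1.75 to 8.04). The call was not made by DESeq2 (1.82, adjusted p = 0.0534), and the treated level, 0.254 TPM, stayed below 1 TPM.

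*PDGFRB*, the PDGF receptor of pericytes and fibroblasts, was the member with the largest rise in MDA-MB-231 (hg38, chr5:150113839-150155872). Its counts were 3, 11 and 7 with DMSO and 137, 131 and 196 with ponatinib. The groups lay far apart, and the lowest ponatinib library had more than 10 times the counts of the highest DMSO library. The level rose from 0.451 ± 0.257 to 9.24 ± 1.30 CPM (log2 fold change 4.33, SE 0.29, edgeR adjusted p = 3.89e-07). The ratio of summed counts was 20.6 (95% exact interval 13.3 to 33.6). Per length, it went from 0.201 to 4.25 ± 0.787 TPM, which with ponatinib overlapped *FGFR3* (3.79 ± 1.00 TPM) and exceeded *KDR* (2.19 ± 0.792 TPM).

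In 4T1 the same gene went the other way. *Pdgfrb* had 14, 13 and 12 counts with DMSO and 0 in all 3 ponatinib libraries. Against a floor of 3 counts over the ponatinib group it was at least 13.8-fold lower (edgeR adjusted p = 3.86e-05). The DMSO level was 0.724 ± 0.0689 CPM, so the change concerned a transcript that was scarce before treatment.

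The markers of fibroblasts and pericytes were measured beside *PDGFRB*. In MDA-MB-231 all 10 had counts in some library, and their summed level was 110 to 119 CPM with DMSO and 133 to 147 CPM with ponatinib. *COL1A1* rose from 27.8 to 74.9 CPM (edgeR adjusted p = 3.32e-07) and the pericyte proteoglycan *CSPG4* from 9.86 to 15.7 CPM (edgeR adjusted p = 0.00189), while the pericyte adhesion molecule *MCAM* fell from 76.0 to 48.2 CPM (edgeR adjusted p = 3.14e-05). The pericyte marker *RGS5*, the remaining tested gene of the list, was not called (log2 fold change 0.25, edgeR adjusted p = 0.568). The listed markers *COL1A2* (1 and 3 summed counts), *DCN* (2 and 0), *LUM* (0 and 2) and *FAP* (0 and 2) stayed near 0, unlike *COL1A1*. In 4T1, 7 of the 10 had counts, and the summed level was 4.81 to 5.95 CPM with DMSO and 14.9 to 16.1 CPM with ponatinib, where *Pdgfrb* was at 0. *Cspg4* rose there from 1.63 to 6.53 CPM (edgeR adjusted p = 2.19e-07), and *Col1a1* rose as well (log2 fold change 1.26, edgeR adjusted p = 7.57e-06).

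*PDGFRA*, the receptor for most PDGF dimers, had no count in DMSO-treated MDA-MB-231 and 5, 0 and 0 with ponatinib. It was too low to test, and all its counts came from 1 library. In 4T1 (GRCm39, chr5:75311994-75358876), *Pdgfra* had 37, 43 and 75 counts with DMSO and 25, 32 and 32 with ponatinib. The groups did not overlap, and the level fell from 2.86 ± 1.08 to 1.56 ± 0.244 CPM (log2 fold change -0.88, SE 0.29, edgeR adjusted p = 0.0152). The call rested on DMSO replicate 3 and ponatinib replicate 1. Without the first the change was -0.53 (edgeR adjusted p = 0.145), and without the second it was -0.76 (edgeR adjusted p = 0.0584).

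*KDR*, the main VEGF receptor of endothelium, was not called in MDA-MB-231 and fell in 4T1. In MDA-MB-231 (hg38, chr4:55078481-55125595) it had 54, 74 and 79 counts with DMSO and 44, 70 and 98 with ponatinib. The groups overlapped, and the log2 fold change was -0.08 (SE 0.24, edgeR adjusted p = 0.811). The ratio of summed counts was 0.954 with an exact interval of 0.784 to 1.16. In 4T1 (GRCm39, chr5:76093487-76139884) *Kdr* had 59, 43 and 83 counts with DMSO and 12, 24 and 11 with ponatinib, without overlap. It fell from 3.42 ± 1.08 to 0.817 ± 0.367 CPM, 4.16-fold (log2 fold change -2.06, SE 0.33, edgeR adjusted p = 5.87e-05). Endothelial markers in 4T1 summed to 1.33 to 1.59 CPM with DMSO and 0.723 to 1.79 CPM with ponatinib over 6 genes, with *Cldn5* and *Emcn* at 0. In MDA-MB-231 their sum was 307 to 364 CPM with DMSO and 152 to 160 CPM with ponatinib, nearly all of it from *ESAM* (330 and 154 CPM).

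*KIT*, the stem cell factor receptor, was close to absent in both lines. It had 1, 3 and 1 counts with DMSO and 0, 0 and 5 with ponatinib in MDA-MB-231 (hg38, chr4:54657267-54740783), and 1 count in all 6 libraries of 4T1 together. Of 8 immune and mast cell markers, 4 had counts in MDA-MB-231. Their summed level was 0.566 to 0.907 CPM with DMSO and 1.64 to 2.55 CPM with ponatinib. Most of this sum came from *CSF1R*, at 0.735 CPM with DMSO and 1.80 CPM with ponatinib, the only tested gene of this list. The mast cell genes *TPSAB1* and *FCER1A* were at 0, while *MS4A2* and *CPA3* had counts, at most 4 in a library. In 4T1 likewise 4 of 8 had counts, and the sum was 7.50 to 9.13 CPM with DMSO and 3.90 to 5.06 CPM with ponatinib. Most of it came from the mast cell tryptase *Tpsab1*, which fell from 7.26 to 3.69 CPM (log2 fold change -0.97, SE 0.18, edgeR adjusted p = 0.000165), while *Cd3e*, *Ms4a2*, *Cpa3* and *Fcer1a* were at 0. *RET*, the receptor of the GDNF family, had no count in DMSO-treated MDA-MB-231 and 2, 1 and 1 with ponatinib. In 4T1 *Ret* had 9, 16 and 8 counts with DMSO and 2, 7 and 5 with ponatinib. The 4T1 groups did not overlap, but the gene did not pass the filter. Its summed counts were 2.51-fold lower with ponatinib (95% exact interval 1.31 to 5.07), which covers counting error and not the spread between libraries.

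The listed ligands of the PDGF, KIT, RET and VEGF receptor families passed the filter more often than the listed receptors. The VEGF family was listed whole, so not every ligand, for example *Pgf*, binds a listed receptor. Of 14 ligands, 12 were tested in MDA-MB-231, with 6 called higher, 1 lower and 5 not called (median log2 fold change 0.29), and 12 in 4T1, with 6 higher, 2 lower and 4 not called (median 0.23). The share called was 58.3% for MDA-MB-231 against a background of 54.1%, and 66.7% for 4T1 against 59.1%. *PDGFA*, a ligand of PDGFRA, fell in MDA-MB-231 from 37.7 ± 1.12 to 18.7 ± 0.742 CPM (log2 fold change -1.01, SE 0.09, edgeR adjusted p = 3.11e-06). *PDGFD*, a ligand of PDGFRB, rose from 6.41 ± 0.501 to 11.0 ± 1.77 CPM (log2 fold change 0.78, SE 0.16, edgeR adjusted p = 0.00118). *VEGFD*, a ligand of KDR and FLT4, went from 5, 1 and 0 counts to 20, 15 and 23 (log2 fold change 3.09, SE 0.63, edgeR adjusted p = 0.00148). The RET pathway ligand *PSPN* rose from 10.4 to 14.8 CPM (edgeR adjusted p = 0.00313). In 4T1 *Pgf*, a ligand of FLT1, fell from 19.3 ± 3.43 to 6.29 ± 0.850 CPM (log2 fold change -1.62, SE 0.15, edgeR adjusted p = 1.86e-07). *Vegfb* rose from 37.0 to 60.4 CPM (edgeR adjusted p = 2.76e-06), *Vegfd* from 0.556 to 1.34 CPM (edgeR adjusted p = 0.00824) and *Gdnf* from 0.575 to 1.24 CPM (edgeR adjusted p = 0.0119). The call of *Gdnf* was lost under 3 of 11 alternatives and that of *Vegfd* under 1 of 11. The ligand of KIT was not called in either line, at 4.64 and 4.47 CPM for *KITLG* and 36.1 and 32.0 CPM for *Kitl*; it was chosen for mention after its values were seen.

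The listed co-receptors and binding proteins bind ligands or receptors. Of 22, 12 were tested in MDA-MB-231, with 7 higher, 2 lower and 3 not called (median 0.35), and 13 in 4T1, with 7 higher, 4 lower and 2 not called (median 0.29). Thus 75% were called in MDA-MB-231, where 54.1% of all tested genes were, and 84.6% in 4T1, where 59.1% were. The heparan sulfate proteoglycan *GPC1* rose in MDA-MB-231 from 20.5 ± 1.09 to 62.8 ± 6.17 CPM (log2 fold change 1.62, SE 0.10, edgeR adjusted p = 1.99e-07). Its mouse counterpart *Gpc1* fell in 4T1 from 930 ± 51.1 to 471 ± 18.7 CPM (log2 fold change -0.98, SE 0.08, edgeR adjusted p = 2.20e-08). The syndecans *SDC2* (2.53-fold) and *SDC3* (2.19-fold) and the GDNF co-receptor *GFRA1* (2.40-fold) also rose in MDA-MB-231 (edgeR adjusted p of 1.85e-05 or less). In 4T1 the VEGF and semaphorin co-receptor *Nrp2* fell from 51.8 to 21.3 CPM and the FGFR-binding *Flrt3* from 17.2 to 7.19 CPM, while the FGF carrier *Fgfbp1* rose from 1.26 to 2.80 CPM (edgeR adjusted p = 0.00372 or less for each).

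The adaptors and regulators that receptors of this kind share were tested almost completely, 24 of 25 in each line. In MDA-MB-231, 6 were higher, 5 lower and 13 not called (median -0.06), or 45.8% called against 54.1% of all tested genes. In 4T1, 9 were higher, 5 lower and 10 not called (median 0.08), or 58.3% against 59.1%. The ubiquitin ligase *CBLB*, which marks active receptors for removal, rose in MDA-MB-231 from 56, 65 and 65 counts to 360, 365 and 398 (log2 fold change 2.49, SE 0.12, edgeR adjusted p = 3.62e-08). The adaptor *SH2B3* fell from 127 ± 9.48 to 62.8 ± 0.157 CPM (log2 fold change -1.01, SE 0.08, edgeR adjusted p = 1.19e-06), and its relative *SH2B1* rose 1.74-fold (edgeR adjusted p = 1.12e-05). In 4T1 the inhibitory adaptor *Grb14* rose from 2.15 to 5.73 CPM (edgeR adjusted p = 1.22e-05) and the PI3K subunit *Pik3r2* from 168 to 323 CPM (edgeR adjusted p = 4.68e-08). The phospholipase gene rose in both lines, *PLCG2* 1.78-fold in MDA-MB-231 (edgeR adjusted p = 0.000525) and *Plcg2* 1.61-fold in 4T1 (edgeR adjusted p = 0.00746), and the RAS exchange factor *Sos2* fell 1.48-fold in 4T1 (edgeR adjusted p = 8.56e-05).

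The transcripts that FGF receptors and other activators of ERK are known to raise were lower in both lines. Of 18 output and feedback genes, all 18 were tested in MDA-MB-231, with 16 lower, 1 higher and 1 not called (median -1.65, against 0.02 for all tested genes). In 4T1, 17 were tested, with 13 lower, 1 higher and 3 not called (median -0.90). The share called lower or higher was 94.4% beside a background of 54.1% for MDA-MB-231, and 82.4% beside 59.1% for 4T1. This list was written with earlier results on ERK targets in these libraries known, so its direction is not independent evidence. The ETS factor *ETV4* fell from 1494, 1271 and 1345 counts to 123, 116 and 119 in MDA-MB-231 (log2 fold change -3.62, SE 0.12, edgeR adjusted p = 1.72e-09). In 4T1 *Etv4* fell from 2362, 2247 and 2357 counts to 884, 885 and 915 (log2 fold change -1.46, SE 0.08, edgeR adjusted p = 1.91e-10). The feedback inhibitor *SPRY4* (8.69-fold lower) and the factors *ETV5* (7.49-fold) and *FOSL1* (6.60-fold) were also lower in MDA-MB-231, as were *Fosl1* (3.08-fold), *Spred3* (2.55-fold) and the phosphatase *Dusp5* (2.53-fold) in 4T1. The single rise in each line was in the same gene, the feedback inhibitor *SPRY1*, which was chosen for mention after its values were seen. It had 29, 37 and 42 counts with DMSO and 57, 72 and 99 with ponatinib in MDA-MB-231 (log2 fold change 0.97, SE 0.23, edgeR adjusted p = 0.00341), and *Spry1* had 429, 408 and 419 and then 966, 842 and 845 in 4T1 (log2 fold change 0.99, SE 0.09, edgeR adjusted p = 1.55e-07).

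**Figure D4:**
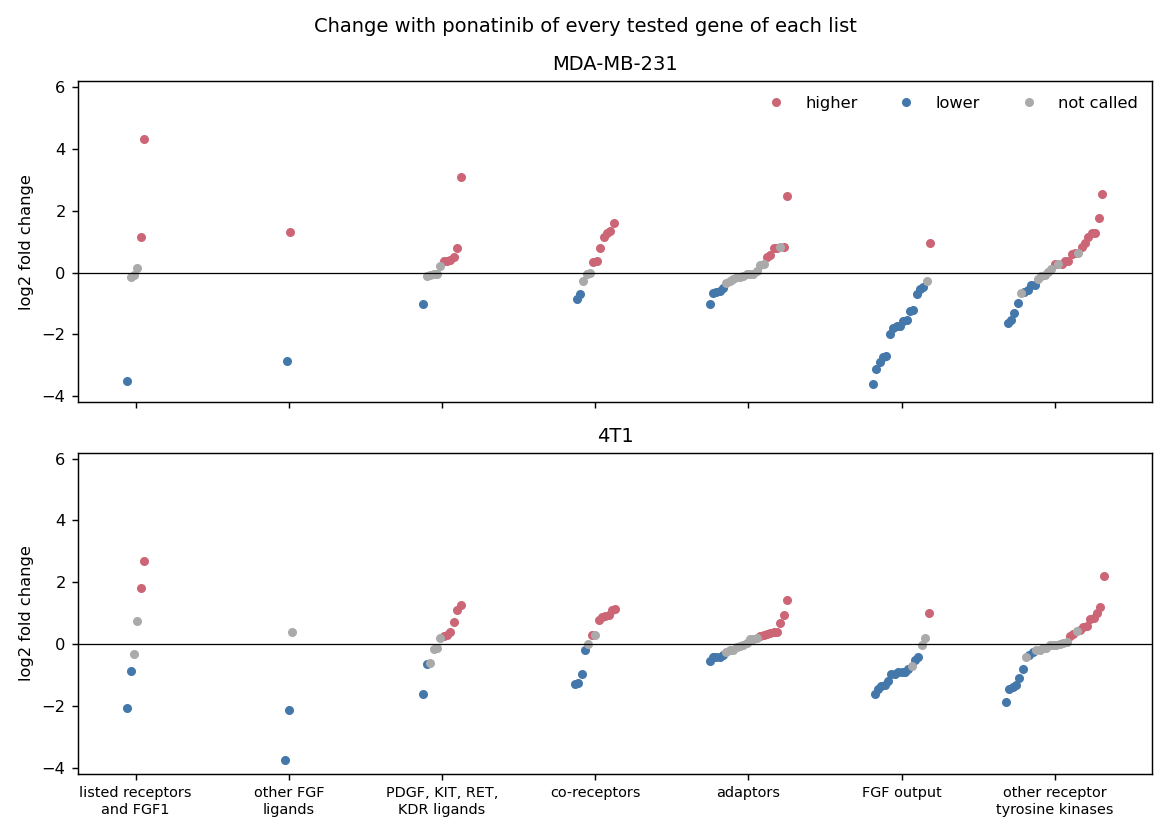
Log2 fold change of each tested gene (points, ordered by value within a list) for 7 lists in MDA-MB-231 (top) and 4T1 (bottom), red where called higher, blue where called lower and gray where not called; *Pdgfrb* in 4T1, at 0 in one group, is not drawn. The output genes lie mostly below 0 in both lines (16 of 18 and 13 of 17 called lower), while the other lists spread to both sides.

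Among 49 other receptor tyrosine kinases, 29 were tested in MDA-MB-231, with 13 higher, 8 lower and 8 not called (median 0.26), and 30 in 4T1, with 10 higher, 8 lower and 12 not called (median -0.04). The share called was 72.4% in MDA-MB-231 (54.1% of all tested genes) and 60% in 4T1 (59.1%). In MDA-MB-231 *LMTK3* rose from 2.89 to 16.8 CPM and *ERBB3*, the neuregulin receptor, from 2.39 to 8.16 CPM (edgeR adjusted p = 3.89e-06 or less). The ephrin receptor *EPHA2* fell there from 663 to 214 CPM and the kinase *STYK1* from 6.70 to 2.32 CPM. In 4T1 *Ephb6*, an ephrin receptor without kinase activity, rose from 1.65 to 7.71 CPM, and *Insrr*, *Ddr2* and *Epha1* fell 3.64-fold, 2.74-fold and 2.60-fold.

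Whether the lines differed in their change was tested by an interaction term over 12491 of the 16825 genes with a shared symbol, of which 20.0% had a higher and 21.9% a lower change in 4T1 than in MDA-MB-231. The change of *FGF1* was 6.12 higher in 4T1 on the log2 scale (SE 0.27, edgeR adjusted p = 2.31e-12). That of *KDR* was lower in 4T1, at -2.05 (SE 0.43, edgeR adjusted p = 0.000721). *PDGFRB* moved in opposite directions in all libraries, and its difference was called lower in 4T1 (edgeR adjusted p = 1.64e-08). Its fitted value of -11.03 is no measure of size, since 1 group had only 0. For *FGFR1* (-0.24, SE 0.29, edgeR adjusted p = 0.561) and *FGFR3* (-0.48, SE 0.49, edgeR adjusted p = 0.473) no difference was called. *FGFR4* was called (4.23, SE 1.67, edgeR adjusted p = 0.0497) on 9 counts in 4T1, and without 4T1 ponatinib replicate 3 the value was 1.98 (edgeR adjusted p = 0.340). The 4T1 DMSO group had no count of *Fgfr4*, so neither value is a measure of size. *PDGFRA* was not called (-4.86, SE 2.11, edgeR adjusted p = 0.0743) but was called with the replicate block (-4.85, edgeR adjusted p = 0.0243). All 5 human counts of *PDGFRA* lay in ponatinib replicate 1, with the DMSO group at 0, so these fitted values are no measure of size, and without that library the difference was -0.88 (edgeR adjusted p = 0.9998). *FGFR2*, *KIT* and *RET* had too few counts for this test.

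The genes whose levels followed the leading member of each line most closely over its 6 libraries were listed by Pearson correlation of log2 CPM. This is a description that any gene with a like pattern over the libraries can share, and it ignores the size of a change. For *FGFR1* in MDA-MB-231 they were *E2F8* (r = 0.9992), *ACOXL*, *RRP1B*, an unnamed gene and *TNFAIP1* (r = 0.9963), each lower with ponatinib. Their log2 fold changes ran from -1.16 to -0.40, against -0.14 for *FGFR1*, which was not called. For *Fgf1* in 4T1 they were *Ephx1* (r = 0.9997), *Creg1*, *Nnt*, *Hadh* and *Vnn1* (r = 0.9994), each higher with ponatinib. Their log2 fold changes ran from 0.66 to 1.94, against 2.67 for *Fgf1*. *Creg1*, for example, went from 65.8 to 252 CPM.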

How the data were processed

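RNA was sequenced from MDA-MB-231 and 4T1 cells exposed to 1 µM ponatinib or DMSO for 24 h, in 3 libraries per group, grouped by their titles. Per the study's methods and the submitters' processing notes, reads freed of adapters and poly-N were mapped by the authors with HISAT2, human ones to hg38 and mouse ones to GRCm39, and HTSeq gave the counts per gene. Versions, annotation and strand setting are not given in the sources used here, so overlapping and antisense genes cannot be told apart. The deposited values are raw counts. Symbols, coordinates and exon lengths came from GENCODE v44 and vM39, which matched 81.9% of the human and 91.1% of the mouse identifiers (99.3% and 99.8% of the counts).

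Counts were tested within each line with edgeR 4.0.16 under R 4.3.3, after filterByExpr and TMM, by the robust quasi-likelihood test with Benjamini-Hochberg adjustment. CPM used TMM-scaled totals and TPM the union of exons. Ratios of summed counts have exact 95% binomial intervals, and the floor for groups at 0 was 3 counts over the group; both cover counting error only. The coefficient of variation between libraries (common dispersion) was 0.0990 for the human and 0.0869 for the mouse line. Replicates were distinct libraries, with a chi-square per gene of 2.37 to 10.8 between them. Deviations of same-numbered libraries correlated at 0.345, 0.111 and 0.133 for the human line and at 0.213, 0.119 and 0.115 for the mouse line. Those of differently numbered libraries ranged from -0.260 to 0.163 and from -0.213 to 0.119. Only replicate 1 lay above these ranges in each line. The replicate numbers were taken to pair the libraries from these values alone, so the pairing is uncertain.

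The members and lists were chosen with earlier results of these data known. All 10 members are named, and from each other list per line at most 4 tested genes, those with the largest called change, a mean of 1 CPM or more where they were higher, and separate groups. Alternatives were DESeq2 1.42.0, its size factors in edgeR, total counts, no filter, a minimum of 10 counts per library, the replicate block, each library left out, and the longest transcript as length. The steps were tested on simulated data. Promoter windows came from RefSeq.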

Additional observations from a re-analysis of the deposited data

Results flagged for a closer look

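For 4 of the 7 genes tested, the change with ponatinib differed between the lines by the interaction test of edgeR with Benjamini-Hochberg adjustment, a test that called 41.9% of all 12491 genes (20.0% with a higher and 21.9% with a lower change in 4T1). The change in 4T1 minus that in MDA-MB-231, on the log2 scale, was 6.12 for *FGF1*, where every ponatinib library lay above every DMSO library in 4T1 and below every one in MDA-MB-231. It was -11.03 for *PDGFRB*, where every ponatinib library lay above every DMSO library in MDA-MB-231 and all ponatinib libraries of 4T1 were at 0, so the value has no meaning as a size. It was -2.05 for *KDR*, whose level in MDA-MB-231 overlapped between groups. These 3 calls were made under all 17 alternatives run for this test.

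The fourth, 4.23 for *FGFR4*, was called at an edgeR adjusted p of 0.0497 and lost that call when any of 9 of the 12 libraries was left out, with a lowest value of 1.98 without 4T1 ponatinib replicate 3, which held 8 of its 9 counts in that line. Since *Fgfr4* had no count in the 4T1 DMSO group, neither value has a meaning as a size.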

How the results depend on the processing

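Of the members called in MDA-MB-231 (2 higher, 1 lower), 1 higher and 0 lower were left when each library had to hold 10 counts or more, where 4 were tested, since *FGF1* and *PDGFRB* do not reach that minimum. In 4T1 (2 higher, 3 lower), 3 members were tested under that filter. *Fgf1* was called higher and *Pdgfra* and *Kdr* lower, while *Fgfr2* and *Pdgfrb* were not tested. DESeq2 called 1 member higher in 4T1. With the replicate block, 2 members instead of 1 were lower in MDA-MB-231, *FGFR1* being added, and 3 instead of 2 had a lower change in 4T1, *PDGFRA* being added; the block changed no other call of a member. DESeq2 called 4 members with a lower change in 4T1. Members with a higher change in 4T1 numbered 1 to 2 when single libraries were left out. With the longest transcript as length, *FGFR1* held 74.3% of the summed level of the members in DMSO-treated MDA-MB-231 (59.6% with all exons) and *Fgf1* 62.2% in DMSO-treated 4T1 (58.0%). Total counts in place of TMM moved the median log2 change over all genes, which was 0.02 for MDA-MB-231 and -0.00014 for 4T1, up to 0.11 for the former and 0.12 for the latter. In MDA-MB-231 the genes called became 4637 higher and 3081 lower (3987 and 3911 with TMM). In 4T1 they became 4858 higher and 2936 lower (3948 and 3904 with TMM). No called result changed direction. Of the uncalled changes of members, that of *KDR* in MDA-MB-231 (-0.08) was 0.02 with total counts and ranged from -0.30 to 0.14 over the alternatives, and the difference between the lines for *FGFR1* (-0.24) ranged from -0.51 to 0.07. Low counts limit *FGFR2*, *PDGFRA*, *KIT* and *RET* in MDA-MB-231 and *Fgfr4*, *Kit* and *Ret* in 4T1. These did not pass the filter on low counts of the test within their line.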

Other observations

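The genes beside the members were looked at after the values of the members had been seen. In MDA-MB-231, *CSF1R*, the receptor of macrophage colony-stimulating factor, begins 0.467 kb beyond the end of *PDGFRB* on the same strand and had 12, 14 and 8 counts with DMSO and 26, 35 and 28 with ponatinib (log2 fold change 1.28, SE 0.33, edgeR adjusted p = 0.00663), while *CDX1* on the other side had no count. In 4T1, *Csf1r* had 1 count in all and *Cdx1* none. *SPRY4*, the nearest protein-coding gene on one side of *FGF1* (266 kb away in the human and 236 kb in the mouse genome), fell in both lines (log2 fold change -3.12 in MDA-MB-231 and -0.92 for *Spry4* in 4T1), and *ARHGAP26* on the other side had -0.13 in MDA-MB-231 (edgeR adjusted p = 0.371) and 0.80 for *Arhgap26* in 4T1 (edgeR adjusted p = 0.000176). Thus *Spry4* and *Fgf1*, neighbors in 4T1, moved in opposite directions there.

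A few ligands and carriers under the filter in MDA-MB-231 were also picked out after their values had been seen, and none of them was tested. *FGF17* had 1, 0 and 1 counts with DMSO and 15, 6 and 10 with ponatinib, a ratio of summed counts of 14.4 (95% exact interval 3.68 to 125). *FGFBP1*, the FGF carrier, had no count with DMSO and 22, 8 and 1 with ponatinib, at least 9.63-fold higher against a floor of 3 counts over the group, with most counts in 1 library.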
